A study of Mus musculus with 21 samples.

Results

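The 8 genes studied here encode S100 proteins, galectins, annexin A2 and vimentin, and were followed through a culture series of mouse CD8 T cells: S100a4, S100a6, S100a10, S100a11, Lgals1, Lgals3, Anxa2 and Vim. They were chosen by name, as 8 of the 17516 gene symbols counted in the tables, and not by a threshold on measured values. Earlier results of these data were known when they were chosen. The cells were OT1 CD8 T cells, from mice whose CD8 T cells carry a transgenic receptor for an ovalbumin peptide, profiled by droplet single-cell RNA sequencing with unique molecular identifiers (UMIs, tags that mark single RNA molecules). The 21 libraries were 21 conditions with 1 library each. There were naive cells of day 0, cells activated with anti-CD3 and anti-CD28 beads and sampled without cytokine on days 3 and 5, and activated cells cultured with 5 or 50 IU/mL of IL-2, of IL-2v or of IL-15 and sampled on days 3, 5 and 10. All libraries other than the naive one thus shared the bead activation. IL-2v is a mutant IL-2 that the labels call IL-2bg, and day 7, which the growth protocol also names, was not analysed here. The treatment labels of the libraries titled 50 IU/mL IL-2 and 50 IU/mL IL-15 name interleukins 3 and 16 in place of 2 and 15, and the titles were followed.

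S100 proteins are small calcium-binding proteins that bind and alter the activity of partners such as nonmuscle myosin and annexins. Galectins are lectins that bind galactose-containing sugars on glycoproteins, inside and outside the cell, and both galectins studied here are known to act on T cell survival and receptor signalling. Annexin A2 binds membranes in the presence of calcium and forms a complex with S100A10, and vimentin builds the intermediate filaments that give a lymphocyte its stiffness. Effector and memory CD8 T cells are known to carry more RNA of several of these genes than naive cells.

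All 4 S100 genes lie on mouse chromosome 3 (GENCODE vM21 on GRCm38, the assembly that mm10 denotes). S100a4 (90603771 to 90606045) and S100a6 (90612882 to 90624181) are neighbours, with S100a5 between them. S100a11 (93520488 to 93526287) and S100a10 (93555080 to 93564643) form a second pair, separated from each other by 28792 bases. Lgals1 lies on chromosome 15 (78926725 to 78930465), Lgals3 on chromosome 14 (47367751 to 47386160), Anxa2 on chromosome 9 (69453620 to 69491795) and Vim on chromosome 2 (13573927 to 13582826). All 8 are protein-coding genes on the plus strand.

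Some of these genes share sequence with other gene models, and their counts carry that uncertainty. Of the 584 exonic bases of S100a4, 302 are also exons of Gm42674, a protein-coding model on the same strand that has no symbol in the tables analysed here, so reads from the shared part could have been assigned to either model or dropped. The annotation also holds 2 pseudogene copies of S100a11, of 297 bases each, which were 98.99% and 98.65% identical to it, and neither symbol was counted in these tables. Anxa2 shares 98 of 3731 exonic bases with Gm16144 on the opposite strand, which was counted.

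Upstream sequence is shown for 2 sets of genes: S100a4 and S100a6, the neighbours whose levels ran together over the libraries, and S100a11 and Anxa2, the members whose windows held a searched motif. The sequences are RefSeq promoter windows of build GRCm38.p6, plus strand, 5′ to 3′, without the bases that are annotated exons. They cover chr3:90603520-90603769 for S100a4, chr3:90612644-90612881 for S100a6, chr3:93520246-93520487 for S100a11 and chr9:69453433-69453619 for Anxa2. Capitals mark the AP-1 motif TGANTCA.
S100a4: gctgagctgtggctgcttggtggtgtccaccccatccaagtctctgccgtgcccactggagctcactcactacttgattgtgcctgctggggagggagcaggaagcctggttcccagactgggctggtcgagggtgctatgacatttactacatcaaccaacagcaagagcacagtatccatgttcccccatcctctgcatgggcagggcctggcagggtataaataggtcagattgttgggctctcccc
S100a6: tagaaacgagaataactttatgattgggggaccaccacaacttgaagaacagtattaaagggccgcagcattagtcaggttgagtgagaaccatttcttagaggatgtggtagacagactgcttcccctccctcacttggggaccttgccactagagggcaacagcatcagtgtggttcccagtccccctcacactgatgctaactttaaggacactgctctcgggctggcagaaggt
S100a11: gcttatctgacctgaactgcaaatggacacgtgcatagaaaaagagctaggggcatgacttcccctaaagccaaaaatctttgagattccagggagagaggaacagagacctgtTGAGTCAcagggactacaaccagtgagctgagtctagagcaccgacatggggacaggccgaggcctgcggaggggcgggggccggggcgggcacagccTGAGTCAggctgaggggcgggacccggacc
Anxa2: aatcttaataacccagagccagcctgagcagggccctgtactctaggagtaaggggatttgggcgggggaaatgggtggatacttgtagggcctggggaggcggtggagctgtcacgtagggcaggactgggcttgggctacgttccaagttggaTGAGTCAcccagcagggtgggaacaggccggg
Windows of 250 bases before the start were found for 6 of the 8 genes, and both strands were searched for TGANTCA and for the STAT5 motif TTCNNNGAA. AP-1 letters were present in 2 of the 6 windows, at 136 and 38 bases before the RefSeq start in S100a11 and at 95 bases before it in Anxa2, against 6.75% of the 32851 promoter windows in the same table. STAT5 letters were present in 0 of the 6 windows, against 7.02% of all windows. From the GENCODE starts given above, the same matches lie 128 and 30 bases before S100a11 and 32 bases before Anxa2. Of the 250 bases of a window, GENCODE exons cover 250 for Vim, 63 for Anxa2, 47 for Lgals3, 12 for S100a6, 8 for S100a11 and 0 for S100a4. The Vim and Lgals3 windows lie wholly after the GENCODE starts. These matches describe letters only.

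The libraries held 106456 kept cells, with 10589950 to 32648496 UMIs per library and a median of 3016 to 5065 UMIs per cell. The defining markers of CD8 T cells were present: Cd3d was found in 93.0% to 99.5% of cells and Cd8b1 in 54.5% to 92.0%. Of the markers of other cell types, Lyz2, Csf1r and Adgre1 had UMIs in 1 library, the naive one, in at most 0.126% of its cells. Cd68 had UMIs in all 21 libraries, from 0.901 CPM to 14.9 CPM (7.39% of cells) in 50 IU/mL IL-2 on day 10, the library where 6 members were highest, and Itgam had UMIs in all libraries except 1, at up to 4.54 CPM. The summed myeloid markers ran from 64.1 CPM (a gene's UMIs per 1000000 UMIs of its library) in naive cells to 130.4 CPM in 50 IU/mL IL-2v on day 5, nearly all of it Cst3, which was counted at 61.0 to 126 CPM in every library. The summed B cell markers ran from 1.54 to 17.8 CPM, the NK markers from 0 to 36.7 CPM, the fibroblast markers from 0 to 0.44 CPM, the erythroid markers from 0 to 3.15 CPM and Cd4 from 0 to 4.39 CPM. Cells with a UMI of a myeloid, B cell, fibroblast or erythroid marker, or of Cd4 without Cd8a and Cd8b1, made up 26.2% to 46.0% of a library. Cells with NK markers were not among them, and Klrb1c was found in up to 13.05% of a library's cells. Without the marked cells, 31 of the 33 calls against no cytokine remained. Lost were S100a10 on day 3 with 50 IU/mL IL-2, at -0.99, and Lgals1 on day 5 with 5 IU/mL IL-2, at 0.94 in place of 1.05. Vim gained a call on day 3 with 50 IU/mL IL-2 (1.06). In the other 11 comparisons Anxa2 gained a call in the IL-2 dose step and Vim in the IL-15 dose step. With Cst3, Cd68, Itgam and Cd79b dropped from the markers, 0.137% to 1.73% of cells were left out and no call in those 11 comparisons changed. Any 2 libraries shared 1 to 19 cell barcodes. With 1 library per condition the spread between cultures of a condition was not measured, no test over matched conditions was run, and each interval below covers counting error only.

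S100a4, whose protein binds nonmuscle myosin, and S100a6, also called calcyclin, had their highest levels on day 10 with 50 IU/mL IL-2. S100a4 was counted at 97.0 CPM in naive cells, 62.6 CPM on day 3 without cytokine and 69.8 CPM on day 5 without cytokine. On day 3 the cytokine libraries ran from 16.4 CPM (50 IU/mL IL-2, exact Poisson 95% interval 14.5 to 18.5) to 76.7 CPM (5 IU/mL IL-15), all below the naive library as a whole. On day 5 they ran from 117 CPM (5 IU/mL IL-15) to 330.1 CPM (5 IU/mL IL-2v), all above naive cells. On day 10 the 4 IL-2 and IL-2v libraries held 722 to 1007 CPM, 50 IU/mL IL-15 held 274 CPM, and 5 IU/mL IL-15 held 16.9 CPM (15.3 to 18.7). The highest library was thus 61.3 times the lowest.

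S100a6 was lowest in naive cells, at 176 CPM, and stood at 515 CPM on day 3 and 463 CPM on day 5 without cytokine. It was counted at 193 CPM with 50 IU/mL IL-2 on day 3 and at 353 to 446 CPM in the other 5 cytokine libraries of that day. On day 5 it stood at 646 and 660 CPM with IL-15 and at 960 to 1209 CPM with IL-2 and IL-2v. On day 10 it reached 3925 CPM with 50 IU/mL IL-2 and 2984 CPM with 50 IU/mL IL-2v, and 2583 and 2557 CPM at 5 IU/mL of the same 2 cytokines. With 5 IU/mL IL-15 it stood at 187 CPM, near the level of the naive library as a whole. Over the 21 libraries, which share cell origin, culture and protocol, log2(CPM + 1) of S100a4 and S100a6 had a Pearson correlation of 0.942. S100a5, which lies between them, had 198 UMIs in all libraries together.

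**Figure D1:**
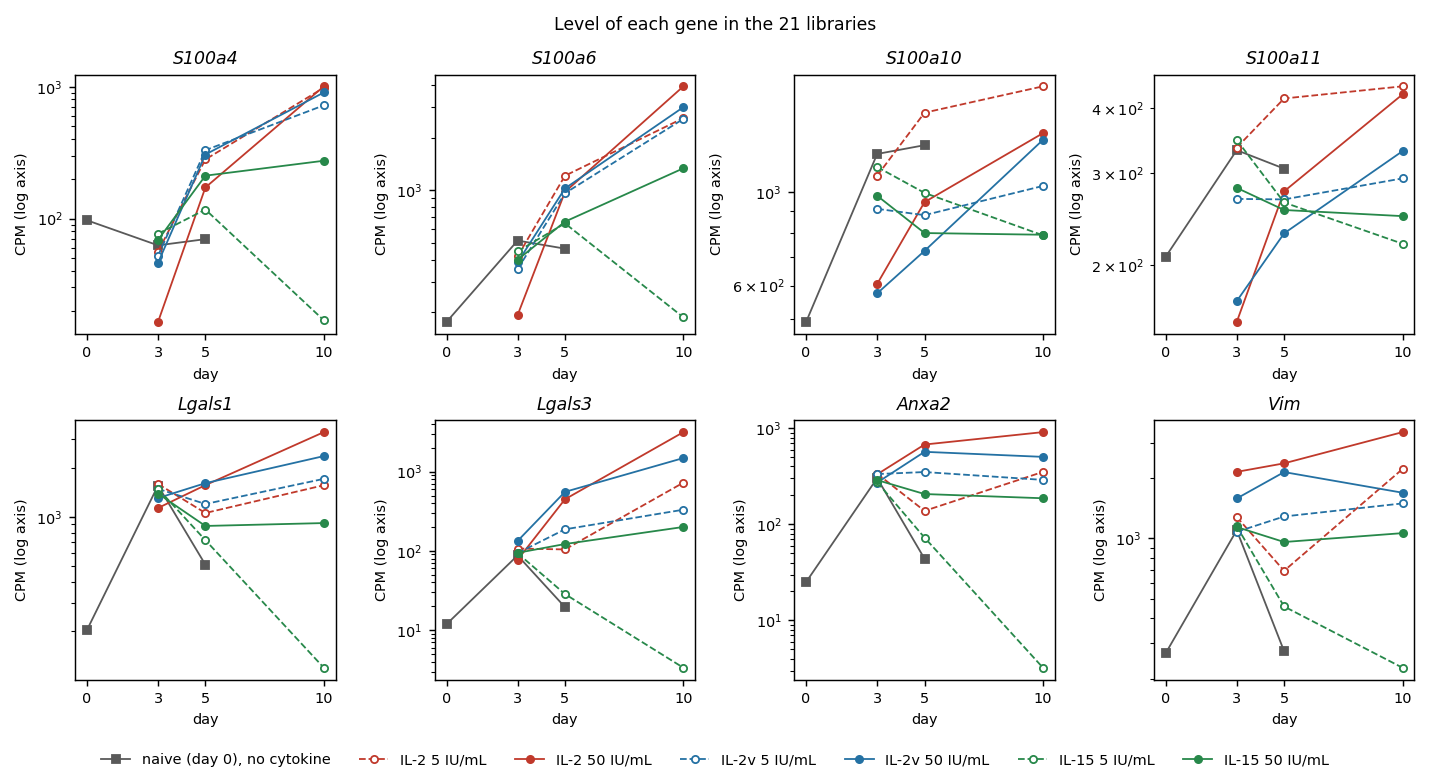
Level of each of the 8 genes (CPM, log axis) by day in the 21 libraries, with 1 point per library; grey squares are naive cells and cells without cytokine, colours are cytokines, dashed lines and open points 5 IU/mL, solid lines and filled points 50 IU/mL. On day 10 the 5 IU/mL IL-15 library lies lowest for all 8 genes. For S100a10 its 789 CPM and the 791 CPM of 50 IU/mL IL-15 lie within overlapping counting intervals. The 50 IU/mL IL-2 library lies highest on that day for S100a4, S100a6, Lgals1, Lgals3, Anxa2 and Vim.

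S100a10, the annexin A2 partner, and S100a11, another annexin-binding S100 protein, varied least. S100a10 ran from 492 CPM in naive cells to 1774 CPM with 5 IU/mL IL-2 on day 10, with a median library at 978 CPM and a ratio of 3.60 between the ends. S100a11 ran from 156 CPM with 50 IU/mL IL-2 on day 3 to 440.6 CPM with 5 IU/mL IL-2 on day 10, with a median of 277 CPM and a ratio of 2.83. Both were lowest among cultured libraries with 50 IU/mL IL-2 or IL-2v on day 3, S100a10 at 606 and 575 CPM and S100a11 at 156 and 171 CPM. Of the 20 steps between libraries ranked by S100a11, 13 lay within overlapping counting intervals, against 3 of 20 for S100a10. Their levels had a correlation of 0.934 with each other, and S100a10 had one of 0.193 with Vim.

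Over the libraries Anxa2 had a correlation of 0.266 with its partner S100a10. Within libraries, single cells with an S100a10 UMI carried Anxa2 more often than cells without in 21 of 21, with intervals apart in 17. This was not particular to the partners: 22 of the 28 pairs of members were found together more often in every library compared, with intervals apart in 10 to 20 libraries over the 28 pairs. It was counted at 25.1 CPM in naive cells, 302 CPM on day 3 without cytokine and 43.9 CPM on day 5 without cytokine. All 6 cytokine libraries of day 3 lay between 272 and 336 CPM, close to the library without cytokine. On day 5 the IL-2 libraries held 138 CPM at 5 IU/mL and 677 CPM at 50 IU/mL, the IL-2v libraries 350 and 568 CPM, and the IL-15 libraries 72.7 and 207 CPM. By day 10 the IL-2 libraries had reached 352 and 911 CPM, the IL-2v libraries stood at 290.0 and 504 CPM, and the IL-15 libraries at 3.22 (2.53 to 4.03) and 187 CPM. The day 10 library of 5 IU/mL IL-15 lay below naive cells, and the highest library was 283 times the lowest.

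Lgals1 encodes galectin-1, a secreted lectin known to dampen T cell responses. Its level was 204 CPM in naive cells, 1557 CPM on day 3 and 511 CPM on day 5 without cytokine. All 6 cytokine libraries of day 3 lay between 1135 and 1592 CPM. By day 10 the IL-2 libraries held 1564 CPM at 5 IU/mL and 3303 CPM at 50 IU/mL, the IL-2v libraries 1711 and 2357 CPM, and the IL-15 libraries 120 and 918 CPM, so that 5 IU/mL IL-15 was again below naive cells.

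Lgals3 encodes galectin-3, which forms lattices with glycoproteins at the cell surface, and it had the widest range of the 8 genes. It was counted at 11.9 CPM in naive cells (10.3 to 13.5), 87.5 CPM on day 3 and 19.5 CPM on day 5 without cytokine, and at 77.1 to 133 CPM in the cytokine libraries of day 3. By day 5 it stood at 104 and 448 CPM with 5 and 50 IU/mL IL-2, 187 and 556 CPM with IL-2v, and 28.5 and 122 CPM with IL-15. By day 10 it stood at 727 and 3156 CPM with IL-2, 331 and 1486 CPM with IL-2v, and 3.35 (2.65 to 4.18) and 200.4 CPM with IL-15. Within each cytokine the 50 IU/mL library was the higher on both of these days, and the whole range was 943 times.

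Vim was counted at 268 CPM in naive cells, 1099 CPM on day 3 and 274 CPM on day 5 without cytokine, a return to within overlapping counting intervals of naive cells. On day 3 it stood at 2147 CPM with 50 IU/mL IL-2 and 1582 CPM with 50 IU/mL IL-2v, and at 1079 to 1279 CPM in the other 4 cytokine libraries. On day 10 the IL-2 libraries held 2219 and 3388 CPM at 5 and 50 IU/mL, the IL-2v libraries 1495 and 1690 CPM, and the IL-15 libraries 227 and 1063 CPM.

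The 8 genes together took 0.148% of all UMIs in naive cells, 0.157% in 5 IU/mL IL-15 on day 10 and 1.75% in 50 IU/mL IL-2 on day 10. Shares of cells with at least 1 UMI were compared after every cell had been thinned to 2000 UMIs. Lgals3 was found in 0.895% of naive cells (40 of 4471; exact 95% interval 0.640% to 1.22%), 0.426% of 5 IU/mL IL-15 cells on day 10 (0.271% to 0.639%) and 91.3% of 50 IU/mL IL-2 cells on day 10 (90.4% to 92.1%). Without thinning these shares were 1.63%, 0.972% and 94.96%. S100a4 was found in 4.79% of naive cells and 62.1% of cells with 50 IU/mL IL-2 on day 10, and S100a11 stayed between 25.2% and 54.0% of cells in all 21 libraries. No cell type that lacks these genes was present to set a background of free RNA, so its part in the low shares was not tested.

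**Figure D2:**
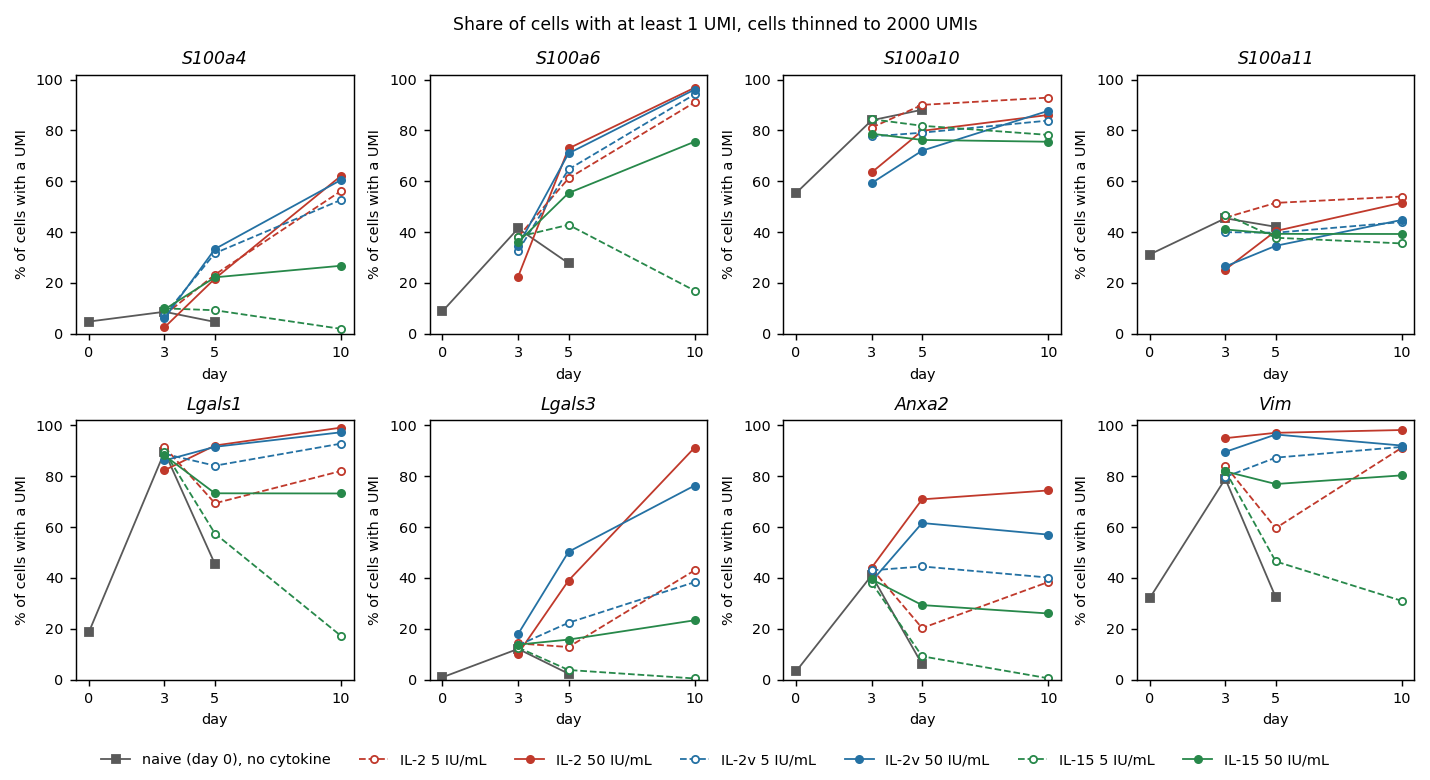
Share of cells with at least 1 UMI of each gene (percent, cells thinned to 2000 UMIs) by day in the 21 libraries, with the symbols of the plot of levels. Lgals3 spans 0.426% to 91.3% of cells, whereas S100a11 spans 25.2% to 54.0%.

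The first comparison asked what bead activation without cytokine changed, day 3 against naive cells. Of the 8 genes 6 were higher by at least 1 on the log2(CPM + 1) scale, the size used as a call throughout, and 0 were lower, against 11.1% higher and 8.31% lower of the 6171 genes tested (at least 20 CPM in either library). Anxa2 was 12.1-fold higher, Lgals1 7.65-fold (7.39 to 7.91), Lgals3 7.38-fold (6.41 to 8.53) and Vim 4.10-fold (3.98 to 4.23). S100a6 (2.92-fold) and S100a10 (2.49-fold) were also called. S100a11 differed by 0.68 and S100a4 by -0.62 on the log2 scale, both short of the size for a call. Against the naive cells without a Ccl5 UMI alone, the S100a4 difference was 0.09. The median over the 8 genes was 1.79, and over all genes tested -0.11.

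Without cytokine, day 5 against day 3, 4 of the 8 genes were lower and 0 higher, against 9.47% lower and 3.61% higher of the genes tested. The differences were -2.76 for Anxa2, -2.11 for Lgals3 and -1.61 for Lgals1 on the log2 scale, and Vim was 4.01-fold lower. The 4 S100 genes moved by -0.15 to 0.15. The galectins, annexin A2 and vimentin thus fell after day 3 without cytokine, and no S100 gene was called.

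Each cytokine library was also set against the cells of that day cultured without any cytokine, so that the 6 comparisons of a day have 1 control library in common. On day 3 no member was called with 5 IU/mL IL-2 (0.142% of genes were higher and 0.106% lower), 5 IU/mL IL-2v (0.211% and 0.0704%), 5 IU/mL IL-15 (0.142% and 0.285%) or 50 IU/mL IL-15 (0.819% and 0.261%). With 50 IU/mL IL-2 on day 3 all 4 S100 genes were lower and no member was higher, where 2.74% of genes were lower and 6.45% higher. With 50 IU/mL IL-2v 1 member, S100a10, was lower and none higher, where 1.75% and 7.83% of genes were. The share of cells with a UMI of the cycling genes Mki67 or Top2a was 73.8% and 86.9% in those 2 libraries and 60.0% without cytokine. With 50 IU/mL IL-2 the differences were -1.87 for S100a4, -1.41 for S100a6, -1.09 for S100a11 and -1.02 for S100a10 on the log2 scale, and with 50 IU/mL IL-2v S100a10 differed by -1.09. Among cells without a Mki67 or Top2a UMI these 5 differences were -1.32, -0.89, -0.89, -0.79 and -0.98 in the same order, so that 1 lower call was left while the other 4 stayed below 0 and short of the size for a call. When cells were first thinned to 2000 UMIs, the noncycling values were -1.50, -1.04, -1.05, -0.88 and -1.09, and 4 lower calls were left. Vim, short of a call over all cells with 50 IU/mL IL-2 (0.97), reached 1.14 and 1.09 among these noncycling cells. The share of all genes called among noncycling cells was not set beside these counts, so they are no result about the members.

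On day 5 S100a4, S100a6, Lgals1, Lgals3, Anxa2 and Vim were higher in each of 4 comparisons with no cytokine. These 6 of 8 compare with 2.14% of genes for 5 IU/mL IL-2, 16.5% for 50 IU/mL IL-2, 9.75% for 5 IU/mL IL-2v and 21.1% for 50 IU/mL IL-2v. The S100a6 calls lay near the size for a call, at 1.08 with 50 IU/mL IL-2 and at 1.05 and 1.14 with 5 and 50 IU/mL IL-2v, and these 3 were lost under trimmed mean of M values (TMM) scaling (0.93, 0.89 and 0.80) and with totals free of ribosomal protein and mitochondrial genes. With 5 IU/mL IL-2 the S100a6 difference was 1.38. TMM scaling also called S100a10 lower with 50 IU/mL IL-2v on day 5 (-1.17 in place of -0.83). With 50 IU/mL IL-15, 4 were higher (S100a4, Lgals3, Anxa2 and Vim), where 5.82% of genes were. With 5 IU/mL IL-15 none was called, where 1.42% were, and the median of the 8 differences was 0.51.

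IL-2v was compared with IL-2 over 6 pairs of equal day and dose, and a call needed every pair to point the same way and the median to reach 1 in size. No member was called higher or lower, where 1.04% and 0.274% of genes were. S100a10 was lower with IL-2v in 6 of 6 pairs, from -0.05 to -0.8, with a median of -0.32. S100a11, Anxa2 and Vim were lower in 5 of 6 pairs. S100a4 was 2.81-fold higher with IL-2v at 50 IU/mL on day 3, the 1 member called there (1.22% of genes were), and 1.36-fold lower at 5 IU/mL on day 10. Anxa2 was the 1 member called at 5 IU/mL on day 5, 2.54-fold higher, where 7.29% of genes were. Lgals3 was lower on day 10 at both doses, 2.20-fold at 5 IU/mL, the 1 call there where 7.74% of genes were lower, and 2.12-fold at 50 IU/mL. On day 10 at 50 IU/mL, Lgals3 and Vim were the 2 members called lower, where 2.16% of genes were. Vim only just reached the size for a call (-1.0), and S100a6 at 50 IU/mL on day 3 fell just short of it (1.0).

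IL-15 against IL-2 called 2 members lower, Anxa2 (median -1.31) and Vim (median -1.11), and none higher, where 1.7% of genes were lower and 0.49% higher, and both were lower in 6 of 6 pairs. Lgals3 had the lowest median, -1.85, and was lower in 5 of 6 pairs, with 0.29 at 50 IU/mL on day 3 as the exception. At 50 IU/mL on day 3, S100a4 (4.19-fold) and S100a6 (2.08-fold) were higher with IL-15, 2 calls where 2.24% of genes were higher. On day 5, 2 members were lower at 5 IU/mL (S100a4 and Lgals3; 0.948% of genes) and 3 at 50 IU/mL (Lgals3, Anxa2 and Vim; 8.01% of genes). At 50 IU/mL on day 10, 6 members were lower, where 11.6% of genes were: Lgals3 15.8-fold, Anxa2 4.88-fold, S100a4 3.67-fold, Lgals1 3.60-fold, Vim 3.19-fold and S100a6 2.94-fold. At 5 IU/mL on day 10, 7 were lower, where 9.19% were: Lgals3 217-fold, Anxa2 109-fold, S100a4 58.1-fold, S100a6 13.8-fold, Lgals1 13.1-fold, Vim 9.78-fold and S100a10 2.25-fold. The folds are ratios of CPM, and the IL-15 library held 78 UMIs of Lgals3 and 75 of Anxa2. On the log2(CPM + 1) scale of the calls these 2 genes differed by -7.39 and -6.38. S100a11 fell just short of a call (-1.0). Without day 10 neither call held (Anxa2 -0.60, Vim -0.75).

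IL-2v against IL-15 called 1 member higher, Lgals3 (median 2.43), and none lower, where 2.48% and 0.585% of genes were. Its smallest pair, 5 IU/mL on day 3, held 93.8 against 93.5 CPM, so the sign in that pair rests on counts that differ by less than their counting error. That call was lost with ribosomal and mitochondrial genes left out of the totals and with a limit of 5% mitochondrial UMIs. In single pairs on day 5, 4 members were higher with IL-2v at 5 IU/mL (6.39% of genes) and 3 at 50 IU/mL (8.74%). On day 10, 6 were higher at 5 IU/mL (10.7%) and 5 at 50 IU/mL (9.03%). No member was called in either pair of day 3, where few genes were. At 5 IU/mL 0.418% of genes were higher and 0.0349% lower, and at 50 IU/mL 1.78% and 1.14%.

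**Figure D3:**
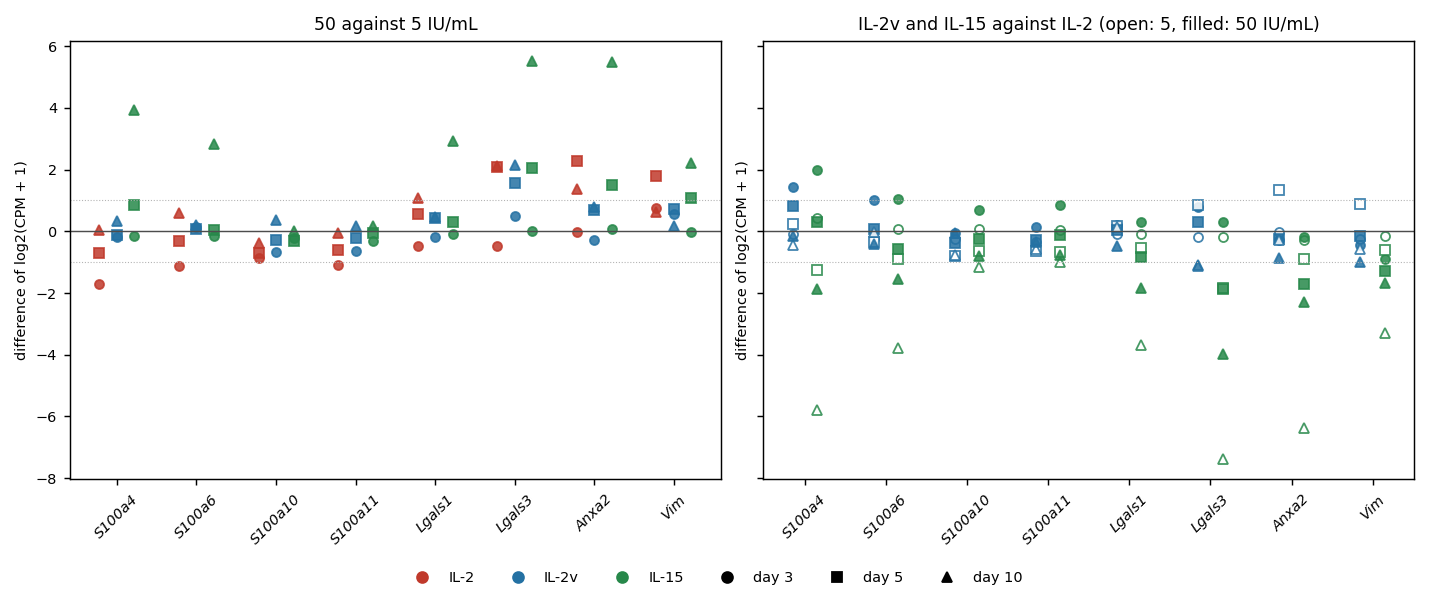
Difference of log2(CPM + 1) per gene, with 1 point per pair of libraries; left, 50 against 5 IU/mL of each cytokine, with day as the symbol; right, IL-2v and IL-15 against IL-2 of the same day and dose, open at 5 and filled at 50 IU/mL. Dotted lines mark 1 and -1, and the points beyond 5 in size are Lgals3, Anxa2 and S100a4 pairs of the 5 IU/mL IL-15 library of day 10.

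Dose was compared over 3 days for each cytokine. With IL-2 no member was called, where 4.29% and 2.7% of genes were higher and lower. Lgals1 and Lgals3 were lower at the high dose on day 3 and higher on days 5 and 10. Anxa2 was higher on days 5 and 10, and on day 3 its 332 and 336 CPM lay within overlapping counting intervals. On day 5, 50 IU/mL IL-2 gave 4.90-fold more Anxa2, 4.30-fold more Lgals3 and 3.43-fold more Vim than 5 IU/mL, 3 calls where 14.1% of genes were higher. On day 10 it gave 4.34-fold more Lgals3, 2.59-fold more Anxa2 and 2.11-fold more Lgals1, where 6.57% were higher. S100a4, S100a6 and S100a11 were lower at the high dose on day 3 (-1.71, -1.11 and -1.1), where 1.98% of genes were lower. Without day 3 the step gained higher calls, with fewer pairs to share 1 sign and no share of all genes set beside them.

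With IL-2v the dose step called Lgals3 alone (median 1.57; 0.50, 1.57 and 2.16 on days 3, 5 and 10), where 2.38% of genes were higher and 0.626% lower; single days gave the same call on day 5 (4.21%) and day 10 (5.02%). With IL-15 it called Lgals3 (median 2.06) and Anxa2 (median 1.49), where 0.869% were higher and 0.181% lower. On day 3 the IL-15 dose step moved every member by 0.30 or less in size. On day 5 Lgals3 (4.28-fold), Anxa2 (2.84-fold) and Vim (2.10-fold) were higher, 3 calls where 2.13% of genes were. On day 10 it raised 6 members, where 3.33% of genes were higher: Lgals3 59.9-fold (47.9 to 75.9), Anxa2 58.1-fold (46.3 to 73.9), S100a4 16.2-fold, Lgals1 7.66-fold, S100a6 7.12-fold and Vim 4.69-fold, while the ratio of S100a10 had an interval of 0.984 to 1.02 and S100a11 stood at 1.13-fold. With TMM scaling and with the 5% mitochondrial limit Lgals3 lost its IL-15 call, since its pairs no longer shared a sign; its day 3 difference was 0.01. Without day 10 Anxa2 lost its own (0.78).

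Time was compared within each cytokine and dose over 6 pairs. From day 3 to day 5, S100a4 (median 2.47, 0.60 to 3.31) and S100a6 (median 1.42, 0.53 to 2.34) were higher in 6 of 6 pairs and called, where 0.829% of genes were higher and 2.22% lower. From day 5 to day 10 no member was called, where 0.0705% of genes were higher and 1.62% lower. S100a4, S100a6, Lgals1 and Lgals3 were higher in 5 of those 6 pairs, and the exception was 5 IU/mL IL-15, where the differences were -4.13 for Anxa2, -2.76 for Lgals3, -2.72 for S100a4, -2.58 for Lgals1, -1.78 for S100a6 and -1.01 for Vim, 6 lower calls where 3.46% of genes were. The other pairs gave higher calls: 5 members with 5 IU/mL IL-2 (4.62% of genes), 4 with 50 IU/mL IL-2 (5.99%), 2 with 5 IU/mL IL-2v (1.98%), 3 with 50 IU/mL IL-2v (1.58%) and 1, S100a6, with 50 IU/mL IL-15 (0.823%). From day 3 to day 10 S100a4 (median 3.94), S100a6 (2.74) and Lgals3 (2.28) were higher in 5 of 6 pairs and none was called, where 0.87% of genes were higher and 7.98% lower. The 5 IU/mL IL-15 pair was the only pair of the other sign for S100a4, S100a6 and Lgals3, whose medians exceeded 1 in both comparisons. Leaving it out, chosen after seeing the data, therefore made them calls by the rule alone.

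Single cells showed whether these levels came from few or many cells. The median summed count of the 8 genes per 2000 UMIs was 2 in naive cells, 9 on day 3 and 4 on day 5 without cytokine, 32 in 50 IU/mL IL-2 on day 10 and 3 in 5 IU/mL IL-15 on day 10. In 50 IU/mL IL-2 on day 10 the 10th and 90th percentiles were 18 and 51 UMIs, so cells at the 10th percentile held more than cells at the 90th percentile of naive cells, 5 UMIs. All 8 genes were found together in 21.4% of the 50 IU/mL IL-2 cells of day 10, 11.4% with 50 IU/mL IL-2v and 0.224% of naive cells.

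**Figure D4:**
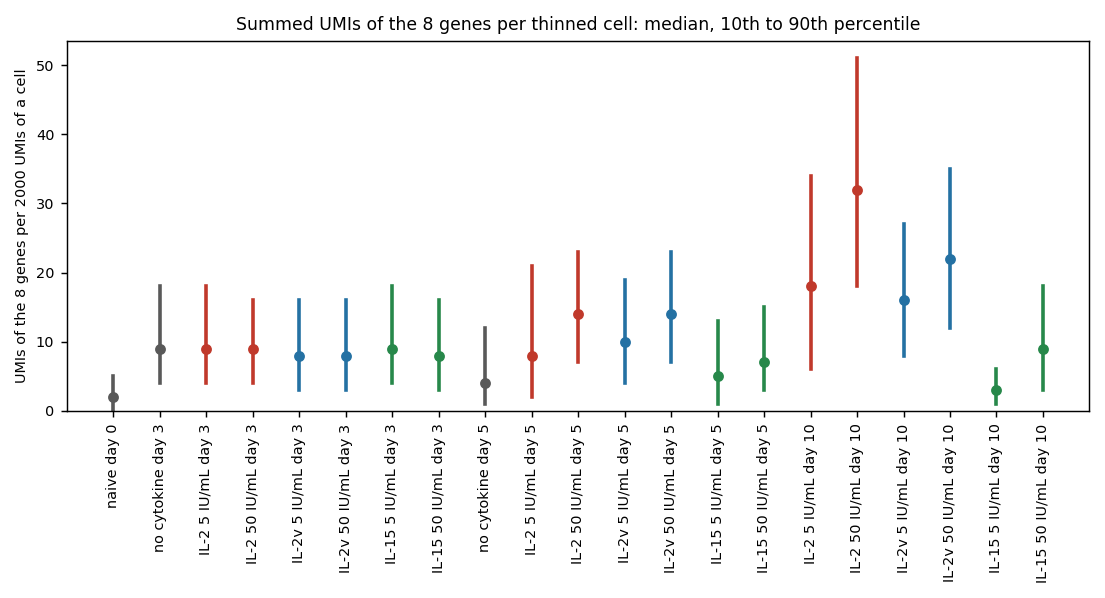
Summed UMIs of the 8 genes per cell thinned to 2000 UMIs, for the 21 libraries; points are medians and bars run from the 10th to the 90th percentile of cells. The median is 2 in naive cells, 32 in 50 IU/mL IL-2 and 3 in 5 IU/mL IL-15 on day 10.

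The naive library was not uniform. Its cells with a Ccl5 UMI, a chemokine RNA known from memory-phenotype CD8 T cells, numbered 451 against 4020 without. Levels in such splits were taken from cells thinned to 2000 UMIs. S100a6 stood at 844 CPM in the cells with Ccl5 and at 81.5 CPM in those without, Lgals3 at 56.5 and 2.99 CPM, Anxa2 at 88.7 and 13.4 CPM, S100a4 at 294 and 58.3 CPM, and Lgals1 at 628 and 139 CPM. S100a10 (773 and 456 CPM), S100a11 (368 and 194 CPM) and Vim (358 and 244 CPM) differed less. Cd44, an activation and memory marker, stood at 104 and 15.9 CPM. Comparisons with naive cells elsewhere used the whole library, apart from the S100a4 activation difference given against cells without Ccl5. S100a4 with 5 and 50 IU/mL IL-15 on day 3 (76.7 and 68.8 CPM) lay above the naive cells without Ccl5. So did S100a6 with 5 IU/mL IL-15 on day 10 (187 CPM). Lgals3 in that day 10 library (3.35 CPM, 2.65 to 4.18) had an interval that held the 2.99 CPM of naive cells without Ccl5. S100a4 (16.9 CPM), Lgals1 (120 CPM), Anxa2 (3.22 CPM) and Vim (227 CPM) of the same library lay below those naive cells. Naive cells with an S100a4 UMI, 214 in number, carried S100a6 in 80.8% (74.9% to 85.9%), against 5.22% (4.57% to 5.93%) of the others, and Lgals3 in 16.4% against 0.117%.

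Cells with a Mki67 or Top2a UMI were set against the rest of the same library. Lgals1 was higher in cycling cells in 15 of 21 libraries (median 0.22) and Lgals3 was lower in 17 of 21 (median -0.43). S100a11 was lower in 16 of 21 and S100a10 in 15 of 21. The naive library had the highest difference for each gene, with Lgals3 4.77, S100a4 3.64 and Anxa2 3.46 higher in its 81 cycling cells. Differences above 1 also occurred on day 5, for Anxa2 (1.36) and Lgals3 (1.19) without cytokine, Anxa2 with 5 IU/mL IL-2 (1.17), and Anxa2 (1.39) and Lgals1 (1.05) with 5 IU/mL IL-15, and on day 10 for S100a4 with 5 IU/mL IL-15 (1.16). The lowest difference of any gene, -1.98 for Lgals3, came from that same day 10 library. Before thinning it held 394 UMIs of S100a4 and 78 of Lgals3 in all its cells. With cycling defined by at least 2 UMIs of 6 cycle genes, which left out the naive library and 5 IU/mL IL-15 of day 10, the day 5 library without cytokine was highest for each gene, up to 2.26 for Anxa2, and Lgals1 was higher in 13 of 19 libraries and Lgals3 lower in 15.

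**Figure D5:**
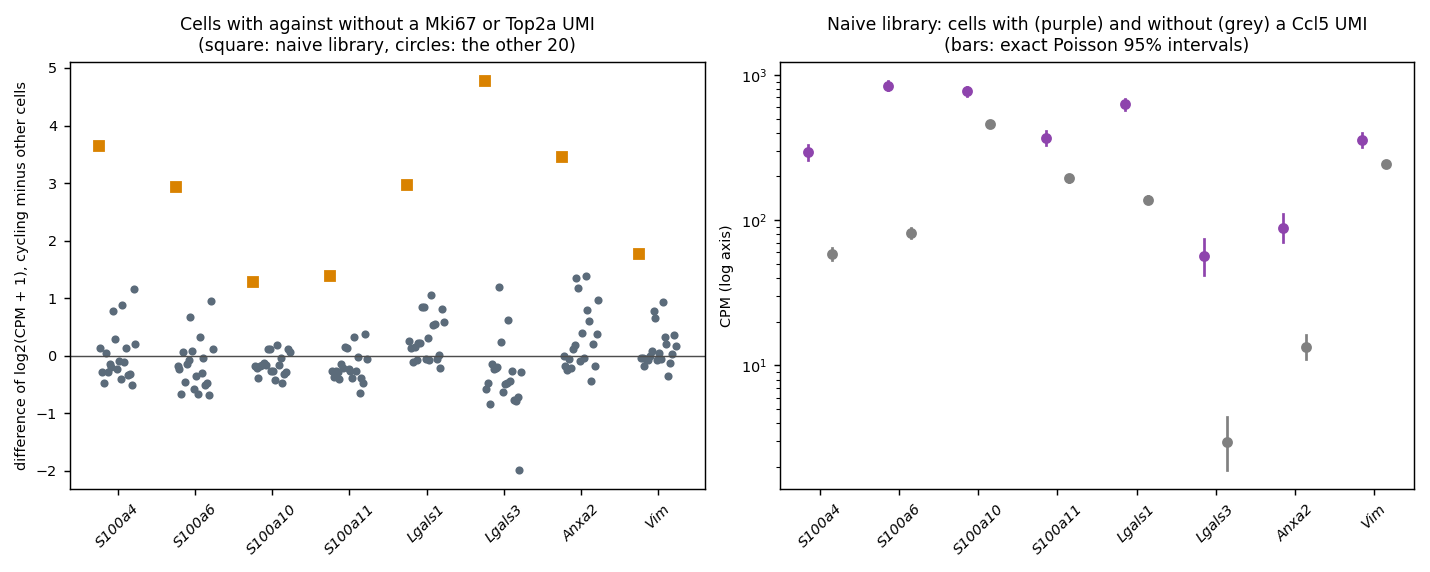
Left, difference of log2(CPM + 1) between cells with and without a Mki67 or Top2a UMI for each gene, with 1 point per library and the naive library as a square, which lies highest for all 8 genes. Right, CPM (log axis) of the 8 genes in naive cells with (purple) and without (grey) a Ccl5 UMI, with exact Poisson 95% intervals for counting error; S100a6 stands at 844 and 81.5 CPM.

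Of 12 other S100 genes 9 were counted and S100a13 alone averaged 20 CPM or more over the libraries, from 118 CPM in naive cells to 390 CPM in 50 IU/mL IL-2 on day 10; it was called in none of the 23 comparisons, and its correlation with S100a6 was 0.919. S100a1 was called higher than without cytokine on day 5, by 1.82 on the log2 scale with 50 IU/mL IL-2 and by 2.26 at the same dose of IL-2v. Of 11 other annexins 8 were counted. In the activation comparison none of the 4 tested was called, and on day 5 Anxa1, which binds membranes and is known from the control of inflammation, was called higher with 5 IU/mL IL-2 (23.8 against 3.00 CPM) and 50 IU/mL IL-2 (33.5 CPM). With 50 IU/mL IL-2v on day 5, Anxa4 (26.0 against 5.77 CPM) and Anxa6 (411.6 against 185 CPM) were called higher. Lgals8 and Lgals9 were the other galectins at that level, and Lgals8 was called once, higher on day 5 than on day 3 without cytokine (81.1 against 28.5 CPM). Among 12 actin and small cytoskeletal genes, activation called 3 higher, Actg1, Crip1 and Capg, and none lower, where 11.1% of all genes were higher, and day 5 against day 3 without cytokine called 4 lower, those 3 and Tagln2, where 9.47% were lower. The dose step called Capg, an actin-capping protein, higher with IL-2 (median 2.06) and IL-2v (median 1.46), while Crip1 (614 against 1526 CPM) and Lsp1 (301 against 586 CPM) were lower at 50 IU/mL IL-2. With 50 IU/mL IL-2 on day 3, Tmsb10 (-1.02), Crip1 (-1.66) and Lsp1 (-1.11) were lower than without cytokine, where 2.74% of genes were, and none of the 12 was higher. On day 5 the same dose called Actg1, Capg and Tagln2 higher, where 16.5% of genes were, and Pfn1 lower (-1.36), where 7.54% were. Lmna, a nuclear lamina gene, was called higher in the IL-2 dose step (median 3.29) and lower with IL-15 than with IL-2 (median -1.97). Lmnb1, another lamina gene, was called higher on activation (2.37), lower from day 3 to day 5 without cytokine (-1.89), higher with IL-2v than with IL-2 (median 1.07) and lower from day 3 to day 10 (median -1.71). On day 5 it was also called higher than without cytokine in 4 of 6 cytokine libraries. Lmnb1 was lowest, and Lmna highest (131 CPM), in 50 IU/mL IL-2 on day 10. Of the list of galectin ligands and glycan enzymes, activation called Lag3, an inhibitory receptor, higher (5.37) and St6gal1, a sialyltransferase, lower (-1.21). On day 5 St6gal1 was called higher than without cytokine in every cytokine library except 5 IU/mL IL-15. It was called lower at the high dose of IL-2v and from day 5 to day 10. Lag3 was called lower from day 3 to day 10 (median -3.63). Cd7, a receptor for galectin-1, was called lower at the high dose of IL-2 (median -1.81) and IL-2v (median -2.59). From day 3 to day 5 Cd7 was called higher, both with and without cytokine. Ahnak, a large scaffold that binds S100A10 and annexin A2, was called higher from day 3 to day 5 (median 1.18).

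Among the 5495 genes that averaged 20 CPM or more, the one most correlated with each member over the 21 libraries was Ccr2 for S100a4 (0.949), Anxa1 for S100a6 (0.964), Clic1 for S100a10 (0.938), S100a10 for S100a11 (0.934), Anxa2 for Lgals1 (0.962), Fgl2 for Lgals3 (0.944), Cd44 for Anxa2 (0.967) and Ctnna1 for Vim (0.945). The genes nearest to the mean profile of the 8 were 4930486L24Rik (0.924), Fgl2 (0.914) and Hopx (0.914). These are descriptions over 21 libraries that share cell origin and culture.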

How the data were processed

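The deposited tables hold raw UMI counts per gene and cell, 1 table per library. The authors' processing, per the submitters' processing notes, used Cell Ranger, Seurat 4.0.1 and Seurat 3.0.2 with genome mm10; which step each did is not given in the sources used here. The labels' extract protocol describes sorted tumour-infiltrating cells, whereas the growth protocol describes the cultures analysed here.

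Kept cells had at least 1000 UMIs, at least 500 genes and no more than 10% of UMIs from mitochondrial genes, which removed 2 cells. No doublet caller was run, and cells above 2 times their library's median UMIs were left out as an alternative. Counts were summed per library and scaled to CPM. Differences are of log2(CPM + 1). Genes were tested at a mean of 20 CPM in either arm, and called where every pair had 1 sign and the median reached 1 in size. Intervals are exact Poisson for CPM, Clopper-Pearson for shares and conditional binomial for ratios, at 95%. Python 3.11.15, numpy 2.4.6, pandas 2.3.3 and scipy 1.17.1 were used, and the calling code was tested on simulated data. Of the planned splits of cells, 1 is not reported here. The planned identity between S100 proteins was not run, since no protein sequences were used here. The named genes were the 8 members, fixed lists of related genes and the 3 most correlated genes of each member; members, lists and tests were chosen with earlier results of these data known. Alternatives covered TMM scaling, other totals, the mean of single-cell CPM, a pseudocount of 10, no expression filter, a limit of 5% mitochondrial UMIs, leaving out possible doublets, other lineages or cycling cells, and leaving out days or cytokines. Thinning to 1000 UMIs or none was tried for shares.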

Additional observations from a re-analysis of the deposited data

Results flagged for a closer look

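The results here are contrasts in which every pair of 1 group moved one way and every pair of the other group moved the opposite way. Each value is the difference between the 2 group medians of the log2(CPM + 1) contrast, and none of these differences was tested. Many of them share libraries, above all the 5 IU/mL IL-15 library of day 10 and the 50 IU/mL IL-2 library of day 3.

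For IL-2v against IL-2, the contrast was higher on day 5 and lower on day 10 for S100a4 (day 10 minus day 5, -0.82) and Lgals3 (-1.68). For IL-15 against IL-2, all 4 S100 genes were higher on day 3 and S100a4 was lower on day 10 (day 10 minus day 3, -5.04). S100a6 was lower on days 5 and 10 (-1.3 and -3.24 from day 3), as were S100a10 (-0.81 and -1.36) and S100a11 (-0.84 and -1.33). At 5 IU/mL on day 3 the S100a11 difference (0.05) lay within counting error.

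For IL-2v against IL-15, S100a4 went from lower on day 3 to higher on days 5 and 10 (1.57 and 4.09), as did S100a6 (0.79 and 2.65). S100a10 was lower on days 3 and 5 and higher on day 10 (1.11 from day 3 and 0.72 from day 5). S100a11 was lower on day 3 and higher on day 10 (0.95).

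For 50 against 5 IU/mL over the 3 cytokines, S100a4 was lower at the high dose on day 3 and higher on day 10 (0.49). Lgals1 was lower on day 3 and higher on days 5 and 10 (0.61 and 1.27).

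From day 3 to day 5, S100a10 and S100a11 were higher with IL-2 and lower with IL-15 (IL-15 minus IL-2, -0.81 and -0.84). Anxa2 and Vim were higher with IL-2v and lower with IL-15 (IL-15 minus IL-2v, -1.76 and -1.13).

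From day 5 to day 10, S100a10 moved up under IL-2 and IL-2v but down under IL-15 (IL-15 minus IL-2, -0.55; IL-15 minus IL-2v, -0.72), as was S100a11 (-0.49 and -0.47). Anxa2 was higher with IL-2 and lower with IL-2v (IL-2v minus IL-2, -1.1) and with IL-15 (IL-15 minus IL-2, -3.03). At 50 IU/mL IL-15 the differences of S100a10 (-0.01) and S100a11 (-0.04) lay within counting error.

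From day 3 to day 10, S100a10 moved up under IL-2 and IL-2v but down under IL-15 (IL-15 minus IL-2, -1.36; IL-15 minus IL-2v, -1.11), as were S100a11 (-1.33 and -0.96) and Vim (-1.95 and -1.5). Lgals1 was higher with IL-2v and lower with IL-15 (IL-15 minus IL-2v, -2.63), and Anxa2 was higher with IL-2 and lower with IL-15 (IL-15 minus IL-2, -4.09).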

How the results depend on the processing

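The labels gave no replicate numbers, so no replicate block was fitted, and no test was run over the pairs of libraries matched by day, dose or cytokine. Over the 11 comparisons other than those with no cytokine, 1087 member values stayed on their side of the threshold, 34 gained a call and 7 lost one. No called member changed sign in its 212 values, whereas members without a call did in 55 of 916, at main sizes up to 1.01 (S100a4, IL-2v against IL-15, -0.01 without day 10), and the median over all genes did in 13 of 141. A call needed 1 sign in every pair, so alternatives that only left out pairs could not turn a called member. Against no cytokine, 29 to 33 of 33 calls remained under each alternative and none turned; the 3 lost under TMM scaling, and the 3 lost with totals free of ribosomal protein and mitochondrial genes, were S100a6 on day 5, while TMM added S100a11 (day 3) and S100a10 (day 5), both lower with 50 IU/mL IL-2v. Without day 3, more members were called in IL-15 against IL-2, IL-2v against IL-15 and the IL-2 and IL-15 dose steps. Without day 10 neither lower call of IL-15 against IL-2 held, and the IL-15 dose step lost its Anxa2 call. The IL-2 dose step then gained a higher and a lower call. Leaving out a day leaves fewer pairs to share 1 sign, which eases the rule for every gene. The share of all genes called was not set beside these changes, so they are no result about the members. Members higher with IL-2v than with IL-15 numbered 0 with totals free of ribosomal protein and mitochondrial genes, 0 at a limit of 5% mitochondrial UMIs and 2 among noncycling cells (no Mki67 or Top2a UMI). The IL-2 dose step called 1 higher under the mean of single-cell CPM, without cells with markers of other lineages, and among noncycling cells. The IL-15 dose step called 1 higher under TMM scaling and at the 5% limit. Day 10 against day 5 and day 10 against day 3 gained higher calls without IL-15. They also did so without the 5 IU/mL IL-15 pair, an alternative chosen after seeing the data. The share of all genes called was not set beside these changes either. Lower calls against no cytokine numbered 1 among noncycling cells, where the other 4 lay at -0.79 to -0.98, and 4 among noncycling cells thinned to 2000 UMIs, chosen after seeing the data. Here too the share of all genes called was not set beside the counts. With Spearman's rho, 6 of the 10 genes nearest to the mean profile stayed. Apart from the alternatives that leave out cells, days or cytokines, the cause of each shift was not tested. The median over all genes from day 3 to day 10 was -0.17, and 0.09 under TMM scaling.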
